A study of Rattus norvegicus with 6 samples.

Results

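The 8 genes described here are the renin-angiotensin members Agt, Ace, Agtr1a and Agtr2 and the endothelin members Edn1, Ece1, Ednra and Ednrb. Both systems make a short peptide that acts on the heart and its vessels through receptors coupled to G proteins. In the first, angiotensinogen (Agt) is cut in steps, the last by angiotensin-converting enzyme (Ace), to angiotensin II, which acts on the AT1 receptor (Agtr1a in rodents) to raise contraction, growth and matrix synthesis, while the AT2 receptor (Agtr2) often opposes it. In the second, endothelin-converting enzyme (Ece1) releases endothelin-1 from the precursor encoded by Edn1, and the ETA (Ednra) and ETB (Ednrb) receptors receive it. Both peptides are known for their part in atrial fibrosis and hypertrophy.

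Members were taken by gene symbol from the array annotation, a probe set being used only when a member was its sole symbol. Of the 8 members, 6 had such a probe set, and each had only 1, so no choice among probe sets was needed. The annotation used here lists no probe set under Ednra or Ednrb alone, and the receptors of endothelin were therefore not analysed here. The RNA came from left atria of adult male Sprague-Dawley rats, 3 after 48 hours of rapid atrial pacing (RAP, cycle length 70 ms) and 3 after 48 hours of control pacing (Con, cycle length 140 ms), and each rat had its own array. All rats of both groups drank atenolol, a blocker of beta-1 adrenergic receptors, and received heparin before sacrifice, and the ventricular rate was the same in both groups. Each RAP rat was operated on, recovered and paced together with a Con rat in an adjacent cage. Pairs 1 to 3 are taken here to be the arrays with equal replicate numbers in the labels, which do not name cage mates. Only pairs with RNA of high quality went on to the arrays. Values are log2 signals per probe set, so a difference of 1 is a doubling of signal, and signals of different probe sets are not compared with each other.

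A gene was tested when its log2 signal exceeded 5 in at least 1 array, as was true of 5 of the 6 measured members and for 11237 genes in all. Rose and fell are used of a gene that changed by more than 1.3-fold with an unadjusted p under 0.05 in limma, fitted with pairs as blocks. Both limits are those of the study's methods. By this rule 6.39% of all genes tested were called, 2.94% higher and 3.45% lower with RAP. With the p-values adjusted by Benjamini and Hochberg over 19907 probe sets, 0 had an adjusted p under 0.05 in limma and 1275 had an unadjusted p under 0.05, and the smallest adjusted p was 0.756. An exact permutation test of 3 arrays against 3 cannot give a two-sided p under 0.1, and an exact sign-flip test over 3 pairs cannot give one under 0.25.

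The atrial markers Nppa, Myl7 and Sln stood between 12.78 and 13.76 on every array. Con 3 stood apart. Myl2, the ventricular regulatory light chain, had a log2 signal of 8.60 in Con 3 and of 4.28 to 4.89 on the other 5 arrays, and 6 ventricular markers stood on average 1.44 above their means over the 6 arrays in Con 3 and between -0.78 and 0.19 on the others. Erythroid markers (4 genes measured) stood at 1.60 in Con 3 and between -0.71 and -0.09 on the others. Without Con 3, in a fit without the pair, 15.4% of all genes passed, and without both arrays of pair 3, with the pair kept as a block, 22.1% did. The calls that changed in these fits are given beside the members and lists.

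Of the 5 members tested, 1 fell with RAP, the AT1 receptor Agtr1a, and 0 rose. Agtr1a had log2 signals of 7.29, 6.61 and 7.28 in RAP 1, RAP 2 and RAP 3, against 7.84, 7.88 and 8.77 in Con 1, Con 2 and Con 3. All 3 RAP arrays lay below all 3 Con arrays, as they did for 7.85% of all genes tested. RAP minus Con was -0.55, -1.27 and -1.49 in pairs 1, 2 and 3, with 7.06 ± 0.39 in RAP and 8.16 ± 0.52 in Con (SD, n = 3 each). The log2 change was -1.10 (SE 0.22, 95% confidence interval -1.68 to -0.52), which is a 2.14-fold lower signal in RAP, with an unadjusted p of 0.00489 and an adjusted p of 0.756 by limma. Among the 388 genes that fell, 35 fell by more. The exact permutation test gave the smallest two-sided p it allows (0.1). By the methods' paired t-test, which uses the spread of this probe set over the pairs alone, the unadjusted p was 0.0604 and Agtr1a did not pass, so that 0 members passed by that test, while 2.08% of all genes did and 1.02% fell.

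The fall of Agtr1a was smallest in pair 1 and largest in pair 3, whose control array had the highest Agtr1a signal of the 6. Without Con 3, in a fit without the pair, the log2 change was -0.80 (SE 0.24, unadjusted p = 0.0157 and adjusted p = 0.252 by limma), and without pair 3 it was -0.91. The part of the ventricular and erythroid RNA of Con 3 in its Agtr1a signal was not tested beyond this. Agtr1a passed the thresholds when any single pair or any single array was left out, with changes between -1.38 and -0.80 over those 9 fits. Several lists of cell type markers moved with the group in part. Of all genes tested, 2.94% rose and 3.45% fell, and 5757 of 11237 were lower on average. Of the 6 mesothelial markers 2 fell (Msln and Wt1), with a median log2 change of -0.69, and the list ranged from -0.49 to 0.11 around its means on the RAP arrays and from -0.11 to 0.81 on the Con arrays. All 10 macrophage markers were lower on average with RAP (median -0.56) and 1 fell (Vsig4), with a range of -0.72 to 0.20 on the RAP arrays and of -0.51 to 1.21 on the Con arrays. Of the 7 adipocyte markers 3 rose (Adipoq, Cidec and Retn), with -0.42 to 1.11 on the RAP arrays and -0.76 to 0.45 on the Con arrays. The 14 endothelial markers ranged from -0.05 to 0.14 on the RAP arrays and from -0.35 to 0.24 on the Con arrays, with 0 of 14 past the thresholds. The 11 smooth muscle and pericyte markers ranged from 0.01 to 0.14 on the RAP arrays and from -0.36 to 0.16 on the Con arrays, and 1 rose (Cspg4). Fibroblast markers (10 genes, 0 past the thresholds) ranged from -0.53 to 0.29 on the RAP arrays and from -0.29 to 0.53 on the Con arrays. The part of these cell types in the Agtr1a values was not tested. In whole tissue, fewer cells of a type and less RNA per cell cannot be told apart.

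The other angiotensin receptors were dim. Agtr2 had log2 signals of 3.74, 3.76 and 3.66 in RAP 1, RAP 2 and RAP 3, against 3.77, 3.55 and 3.66 in Con 1, Con 2 and Con 3. It exceeded 5 on 0 of 6 arrays and was not tested, and at such signals a difference would not be detectable. Agtr1b, the close paralog of Agtr1a in rodents, ranged from 3.50 to 3.79 on the RAP arrays and from 3.14 to 3.70 on the Con arrays. Mas1, the receptor of angiotensin-(1-7), ranged from 3.94 to 4.16 on the RAP arrays and from 3.96 to 4.31 on the Con arrays. Both were under 5 throughout and were not tested. Whether RNA of Agtr1b binds probes of Agtr1a was not tested.

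The sequence before the start of Agtr1a is shown because it is the member that fell, and that of Edn1 because it varied most among the 6 arrays. Each is the 250 bases upstream of the RefSeq start in GRCr8, 5′ to 3′ on the gene's own strand, and capitals mark matches to the TATA box (TATAAA) and to a GATA motif (GATAAG, read on either strand). Both genes lie on the minus strand of chromosome 17, Agtr1a at chr17:34435433-34435682 and Edn1 at chr17:22666688-22666937.
Agtr1a: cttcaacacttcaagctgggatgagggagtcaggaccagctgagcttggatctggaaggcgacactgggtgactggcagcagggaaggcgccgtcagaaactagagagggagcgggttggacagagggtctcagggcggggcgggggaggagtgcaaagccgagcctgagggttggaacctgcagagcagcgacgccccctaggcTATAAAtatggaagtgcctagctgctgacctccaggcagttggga
Edn1: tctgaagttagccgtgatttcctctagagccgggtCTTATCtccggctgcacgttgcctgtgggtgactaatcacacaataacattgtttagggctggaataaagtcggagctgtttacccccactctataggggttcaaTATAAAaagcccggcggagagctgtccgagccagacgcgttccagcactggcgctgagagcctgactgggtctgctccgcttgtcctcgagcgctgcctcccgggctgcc
The TATAAA match begins 45 bases before the start of Agtr1a and 110 bases before that of Edn1, and the GATA match of Edn1 begins at 215 bases. Of 33465 rat promoters of the same length, 12.9% hold TATAAA and 6.19% GATAAG on either strand. Of the 8 members, 7 had an entry (Agt did not). TATAAA was found in 3 of them, Ace, Agtr1a and Edn1, with that of Ace on the opposite strand. AP-1 (TGANTCA, in 6.34% of all promoters) and CRE (TGACGTCA, in 1.59%) were found in 0 of the 7, and GGAAAA, the core of the NFAT motif (in 21.6%), in Ednra and Ednrb. These are matches of letters and say nothing of binding.

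Ace, the peptidase that makes angiotensin II and also breaks down bradykinin, differed by about as much as Agtr1a on average but unevenly. Its log2 signals were 7.69, 6.56 and 6.91 in RAP 1, RAP 2 and RAP 3, against 8.38, 8.82 and 7.05 in Con 1, Con 2 and Con 3. The groups overlapped, since RAP 1 lay above Con 3. RAP minus Con was -0.69, -2.27 and -0.13 in pairs 1, 2 and 3, lower in each pair, as were 14.1% of all genes. The log2 change was -1.03 (SE 0.43, 95% confidence interval -2.16 to 0.10), with an unadjusted p of 0.0655 and an adjusted p of 0.756 by limma, and it did not pass. Pair 2 held most of the difference, and without it the change was -0.41. Without Con 3 alone, unpaired, Ace passed at -1.55 (unadjusted p = 0.00429, adjusted p = 0.186 by limma), and without pair 3 it passed at -1.48.

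The arrays with the highest and the lowest Ace were also those at the ends of the macrophage list. The 10 macrophage markers stood at 1.21 in Con 2 and at -0.72 in RAP 2, where Ace deviated by 1.26 and -1.01 from its own mean. On the other arrays, the markers stood at -0.40 in RAP 1, 0.20 in RAP 3, 0.22 in Con 1 and -0.51 in Con 3. Fibroblast markers stood at 0.53 in Con 2 and -0.53 in RAP 2. In RAP 3 both lists were above their means (0.20 and 0.29), whereas Ace was 0.66 below. The part of these cell types in the Ace values was not tested.

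Agt, the precursor of all angiotensins, had log2 signals of 5.43, 5.66 and 6.65 in RAP 1, RAP 2 and RAP 3, against 5.30, 5.76 and 5.63 in Con 1, Con 2 and Con 3. RAP 3 was high and the other 5 arrays lay within 5.30 to 5.76, close to the level of 5 required for testing. RAP minus Con was 0.13, -0.09 and 1.02 in pairs 1, 2 and 3, a log2 change of 0.35 (SE 0.25, 95% confidence interval -0.31 to 1.02, unadjusted p = 0.225 and adjusted p = 0.802 by limma). It did not pass, and without RAP 3 alone, unpaired, the change was -0.01. The 7 adipocyte markers measured also stood highest in RAP 3, at 1.11 against -0.76 to 0.45 on the other arrays, and fat is a known source of angiotensinogen. Their part in the Agt value was not tested.

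**Figure D1:**
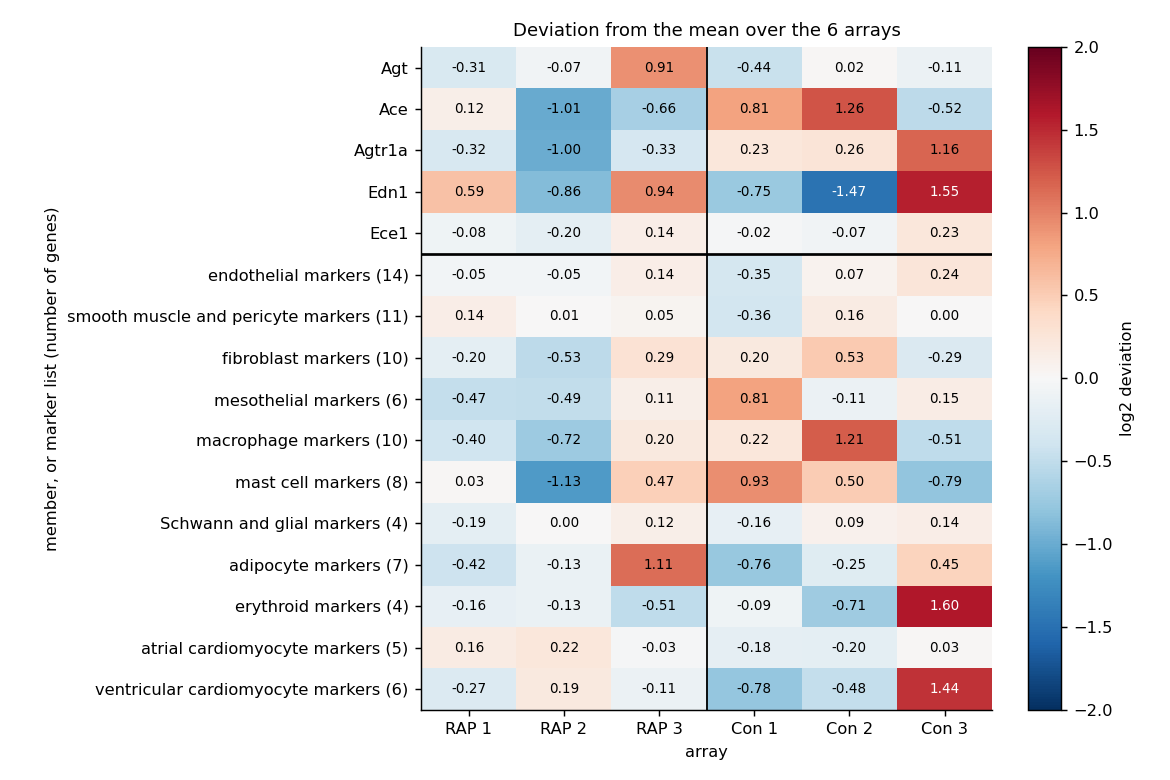
Log2 deviation from the mean over the 6 arrays (colour and printed value) of each tested member and, under the line, of lists of cell type markers averaged over the number of genes in brackets, with the RAP arrays left of the Con arrays. Agtr1a is below its mean on the 3 RAP arrays, Ace is highest in Con 2 (1.26), Agt is high only in RAP 3 (0.91), and Edn1 spans -1.47 in Con 2 to 1.55 in Con 3.

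Edn1, which encodes the precursor of endothelin-1, a potent vasoconstrictor peptide of the endothelium, varied most among the members. Its log2 signals were 7.65, 6.20 and 8.0 in RAP 1, RAP 2 and RAP 3, against 6.32, 5.59 and 8.62 in Con 1, Con 2 and Con 3. Both groups spanned low and high arrays and overlapped. The range over the 6 arrays was 3.02, wider than in 99.3% of all genes tested, and the SD was 0.95 in RAP and 1.58 in Con (n = 3 each). RAP minus Con was 1.33 and 0.61 in pairs 1 and 2 and -0.62 in pair 3. The log2 change was 0.44 (SE 0.39, 95% confidence interval -0.57 to 1.46), with an unadjusted p of 0.31 and an adjusted p of 0.817 by limma, so Edn1 did not pass. Pair 3 was the highest pair in both groups and the only one in which RAP was lower.

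Without pair 3, Edn1 passed the thresholds at 0.97 (unadjusted p = 0.0126, adjusted p = 0.171 by limma). Without Con 3 alone, unpaired, it was 1.33 with an unadjusted p of 0.0517. Without pair 1 the change was 0.00. The 14 endothelial markers stood on average at -0.05, -0.05 and 0.14 in RAP 1, RAP 2 and RAP 3, against -0.35, 0.07 and 0.24 in Con 1, Con 2 and Con 3, and their part in the Edn1 values was not tested.

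Of the 5 members tested, Ece1 had the smallest mean difference and the smallest range. It had log2 signals of 9.99, 9.86 and 10.21 in RAP 1, RAP 2 and RAP 3, against 10.04, 9.99 and 10.29 in Con 1, Con 2 and Con 3. The groups overlapped, and the array from RAP lay slightly below its partner in each pair (-0.05, -0.13 and -0.08). The log2 change of -0.09 (SE 0.13, unadjusted p = 0.515 and adjusted p = 0.881 by limma) had a 95% confidence interval of -0.42 to 0.24. The range of Ece1 over the 6 arrays was 0.43, and 32.3% of genes had a smaller one, whereas the ranges of Agtr1a (2.16), Ace (2.27) and Agt (1.35) exceeded those of 97.5%, 97.9% and 91.0% of genes. Of the 5 members tested, 3 were lower with RAP in all 3 pairs (Agtr1a, Ace and Ece1), as were 14.1% of all genes, and 0 were higher in all 3, as were 14.3% of all genes.

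Of the 17 other genes of the renin-angiotensin system with a probe set, 14 were tested, and 0 rose and 0 fell in the fit of all 3 pairs. This depended on pair 3. Without pair 3, 5 of the 14 fell, namely Anpep, Cma1, Cpa3, Ctsa and Prcp. Without Con 3 alone, unpaired, 3 fell (Anpep, Ctsa and Prcp). Of all 11237 genes, 1422 and 961 fell in those fits, and 22.1% and 15.4% passed in either direction. The median log2 change of the 14 was -0.21, beside -0.01 over all genes tested. It was -0.27 and -0.37 in pairs 1 and 2, with 9 and 11 of 14 lower, and 0.30 in pair 3, with 11 of 14 higher. On this list the pattern of pair 3 against the other pairs was widest in Anpep, Cma1 and Cpa3. Prcp, Ctsa, Nln and Prep also had pair 3 above 0 and pairs 1 and 2 below it. Thop1 and Enpep did not show the pattern, and Lnpep had it in the reverse direction (0.06, 0.58 and -0.09). Macrophage markers had medians of -0.62, -1.94 and 0.87 in pairs 1, 2 and 3. Fibroblast markers had -0.51, -1.11 and 0.65, and mast cell markers -0.70, -1.59 and 1.39. Their part in the values of these enzymes was not tested. Anpep, aminopeptidase N, which trims angiotensin III, had log2 signals of 7.68, 6.71 and 8.43 in RAP 1, RAP 2 and RAP 3, against 9.33, 9.28 and 7.40 in Con 1, Con 2 and Con 3. RAP minus Con was thus -1.64 and -2.57 in pairs 1 and 2 and 1.02 in pair 3 (log2 change -1.06, SE 0.71, adjusted p = 0.789 by limma). Without pair 3 the change was -2.10 (unadjusted p = 0.00136, adjusted p = 0.168 by limma), and without Con 3 alone it was -1.69.

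Chymase (Cma1), a mast cell protease that can cut angiotensin I, gave -0.85, -2.85 and 2.03 in pairs 1, 2 and 3, and the mast cell carboxypeptidase Cpa3 gave -0.57, -2.99 and 2.12. Their log2 changes were -0.56 (SE 0.93) and -0.48 (SE 0.97), with adjusted p-values of 0.898 and 0.913 by limma. Both are also among the 8 mast cell markers, which stood between -1.13 and 0.47 on the RAP arrays and between -0.79 and 0.93 on the Con arrays, lowest in RAP 2 and, among controls, in Con 3. Without pair 3 their changes were -1.85 and -1.78, and both passed. On 2 genes of this list, picked out here after their values were seen, the groups did not overlap. Thop1, an oligopeptidase that can cut angiotensin I, had all 3 RAP arrays (7.07 to 7.32) above all 3 Con arrays (6.71 to 6.93), as had 7.57% of all genes tested, and did not pass (log2 change 0.35, SE 0.14, unadjusted p = 0.0547 and adjusted p = 0.756 by limma). Mrgprd, a receptor of angiotensin metabolites, had all 3 RAP arrays (4.86 to 4.99) below all 3 Con arrays (5.01 to 5.25), the separation seen in 7.85% of all genes. It lay near the level of 5, exceeded it on Con arrays alone and did not pass (log2 change -0.23, SE 0.13, adjusted p = 0.77 by limma). Mrgprd was therefore tested only through the group where it was higher.

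The kinin genes, which belong beside Ace because it degrades bradykinin, were lower on average in all of the 6 tested (of 7 listed), but 0 passed. Kng1, Kng2 and Bdkrb1 exceeded 5 on Con arrays alone, so the filter admitted them through the group where they were higher. The count of lower genes and their median are thus partly set by the filter. Of all genes tested, 5757 of 11237 were lower on average. The median log2 change of the kinin genes was -0.38, beside -0.01 over all genes. Klk1 (-0.20, SE 0.13) and Cpm (-0.37, SE 0.17), picked out here after their values were seen, had all 3 RAP arrays below all 3 Con arrays. So had 7.85% of all genes, and both lay near the level of 5. Kng1 and Kng2, which encode kininogens, the precursors of kinins, had log2 signals of 7.19 and 7.62 in Con 2. On the other arrays Kng1 lay between 3.73 and 4.79 and Kng2 between 4.44 and 5.11. Kng1 has 2 probe sets, of which the brighter is given. Since Kng1 and Kng2 are close paralogs, their signals may not be separate. The inducible bradykinin receptor Bdkrb1 was likewise above 5 only in Con 2 (5.70). Their log2 changes, -1.43 (SE 0.64), -1.16 (SE 0.67) and -0.39 (SE 0.35), therefore rest on pair 2, where RAP minus Con was -3.35, -3.18 and -1.40. Without pair 3 Kng1 passed at -1.96, and without Con 3 alone, unpaired, Kng1 and Kng2 passed at -2.06 and -1.77.

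Genes that make, modify or receive corticosteroids were listed because angiotensin II drives the release of aldosterone. Of the 5 tested, 0 passed the thresholds in the fit with the pair as a block, and calls changed in other fits. Nr3c2, the mineralocorticoid receptor, was 0.57, 0.97 and -0.32 in pairs 1, 2 and 3 (log2 change 0.41, SE 0.28), and it passed without pair 3 (0.77) and without Con 3 alone (0.58). Hsd11b1, which regenerates active glucocorticoid, was -1.11, -1.50 and 0.16 (log2 change -0.81, SE 0.35, unadjusted p = 0.0693 by limma). Without the pair as a block, where 7.74% of all genes passed, Hsd11b1 passed at the same change (unadjusted p = 0.0335, adjusted p = 0.563 by limma), and it also passed without pair 3 (-1.30) and, unpaired, without Con 3 (-1.11) or RAP 3. Cyp11b1, the adrenal 11-beta-hydroxylase, had a log2 signal of 7.77 in Con 1 and of 3.43 to 4.76 on the other 5 arrays, and passed without pair 3 (-1.86). It was tested through that Con array alone. Cyp11b2, the aldosterone synthase, stayed under 5 on all arrays.

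Of the 5 other endothelin genes listed, 4 had a probe set, 3 were tested and 0 passed. Edn2, another endothelin gene, had log2 signals of 4.97, 5.52 and 5.07 in RAP 1, RAP 2 and RAP 3, against 5.12, 5.10 and 5.21 in Con 1, Con 2 and Con 3 (log2 change 0.05, SE 0.17). Ece2, a second converting enzyme, stayed between 5.04 and 5.12 on the RAP arrays and between 5.09 and 5.14 on the Con arrays (log2 change -0.02, SE 0.13). Edn3 was under 5 throughout, with 4.68 to 4.96 on the RAP arrays and 4.84 to 4.98 on the Con arrays. The 95% confidence intervals of the changes were -0.41 to 0.50 for Edn2 and -0.35 to 0.31 for Ece2.

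Downstream of the AT1 and endothelin receptors, which couple to Gq, 1 of 22 tested signaling genes rose and 0 fell, beside 2.94% and 3.45% of all genes. The gene was Rgs2, a regulator that turns off Gq and is known to be induced by it. Rgs2 had log2 signals of 7.93, 8.88 and 8.60 in RAP 1, RAP 2 and RAP 3, against 7.37, 8.52 and 7.67 in Con 1, Con 2 and Con 3. The groups overlapped, but RAP was higher in each pair (0.56, 0.37 and 0.93), and the log2 change was 0.62 (SE 0.17, unadjusted p = 0.0144 and adjusted p = 0.756 by limma). The median of the list was 0.03. The G protein subunit genes, phospholipases, protein kinases C and inositol trisphosphate receptors on the list did not pass in this fit. Plcb4, a phospholipase C, had all 3 RAP arrays (8.31 to 8.76) above all 3 Con arrays (7.91 to 8.25), with a log2 change of 0.48 (SE 0.20, unadjusted p = 0.0609 by limma). Itpr1, an inositol trisphosphate receptor, also did (8.04 to 8.10 in RAP, against 7.22 to 7.99 in Con), with 0.49 (SE 0.19, unadjusted p = 0.0554 by limma), beside the 7.57% of all genes so separated. Without the pair as a block both passed (unadjusted p of 0.0236 for Plcb4 and 0.0441 for Itpr1 by limma) and Rgs2 did not. Both also passed without pair 3 (0.69 and 0.68) and without Con 3 alone (0.59 and 0.69), where Rgs2 passed only without pair 3. Other genes of the list fell in those fits. Without pair 3, 3 of the 22 rose and 5 fell (Arrb2, Grk5, Itpr3, Plcb3 and Prkcb). Without Con 3 alone, unpaired, 2 rose and 2 fell (Itpr3 at -0.78 and Prkcb at -0.71). Of all genes, 22.1% and 15.4% passed in those fits. Without pair 3, 1066 of 11237 rose and 1422 fell, and without Con 3 alone 770 rose and 961 fell. Plcb4 and Itpr1 were picked out here after their values were seen, and Itpr3 had a larger change with all 3 pairs (-0.52, SE 0.22).

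Of 13 tested genes known to respond to angiotensin II or endothelin-1 in heart cells, 1 rose and 1 fell, beside 2.94% and 3.45% of all genes. Ccn2, the connective tissue growth factor, had log2 signals of 10.56, 10.02 and 10.91 in RAP 1, RAP 2 and RAP 3, against 9.67, 9.30 and 10.86 in Con 1, Con 2 and Con 3. It rose by 0.56 (SE 0.21, unadjusted p = 0.0478 by limma), with 0.89 and 0.72 in pairs 1 and 2 and 0.05 in pair 3. Egr1, an early response transcription factor, had 8.04, 9.03 and 8.11 in RAP 1, RAP 2 and RAP 3, against 8.86, 9.06 and 9.36 in Con 1, Con 2 and Con 3. It fell by 0.70 (SE 0.26, unadjusted p = 0.0472 by limma), with -0.83 and -1.25 in pairs 1 and 3 and -0.03 in pair 2. Both had an adjusted p of 0.756. The median of this list was -0.22, with 6 genes higher and 7 lower. Its 3 largest changes did not pass. They were Acta1 at 1.61 (SE 0.62, unadjusted p = 0.0516 by limma), Fn1 at -0.95 (SE 0.60) and Col1a1 at -0.80 (SE 0.53). Nppb also did not pass (0.49, SE 0.19, unadjusted p = 0.0515 by limma). Acta1, Nppb, Nppa and Ccn2 were higher with RAP in all 3 pairs, and Fos and Egr1 lower, beside 14.3% and 14.1% of all genes. Over all 6 pathway lists, 3 of 62 genes tested passed, beside 6.39% of all genes, and 0 of the 3 passed by the methods' paired t-test or without pair 1. Rgs2 and Egr1 passed without pair 2, and Rgs2 and Ccn2 did not pass when the fit left out the pair as a block. Without pair 3, 23 of the 62 passed, Rgs2 and Ccn2 among them but not Egr1, beside 22.1% of all genes. Without Con 3 alone, unpaired, 18 of the 62 passed, Ccn2 among them but neither Rgs2 nor Egr1, beside 15.4% of all genes.

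**Figure D2:**
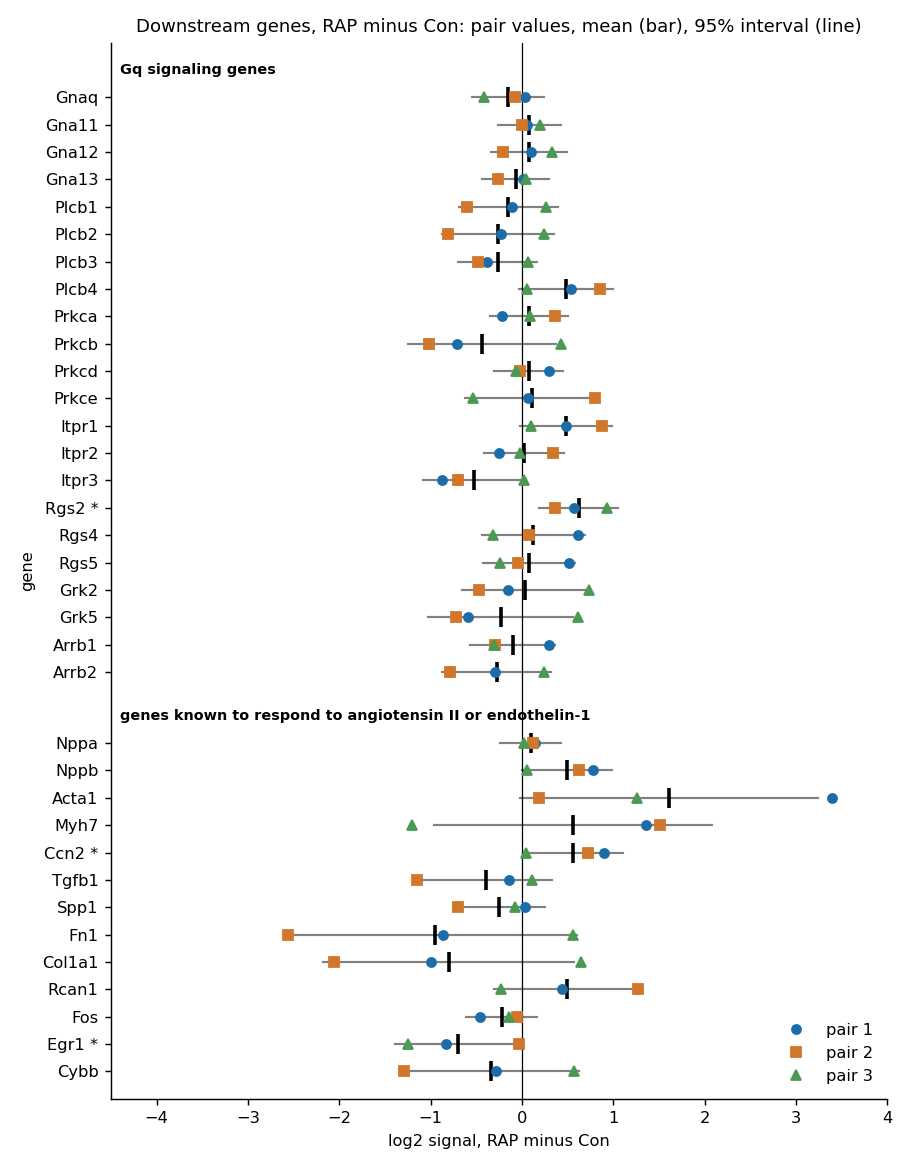
RAP minus Con in log2 signal (horizontal axis) for the 22 Gq signaling genes and the 13 genes known to respond to angiotensin II or endothelin-1, with 1 coloured symbol per pair, the mean as a black bar and limma's 95% confidence interval as a grey line. Asterisks mark the genes past the thresholds, Rgs2 (0.62), Ccn2 (0.56) and Egr1 (-0.70).

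The genes whose log2 signal ran most like that of each tested member over the 6 arrays were taken by Pearson's r, given as a description, since 6 points that share their arrays let many genes reach a high value. For Agtr1a these were Rasl11a (r = 0.968), Dock6 (0.958) and Ube2v1 (0.955), and 5 genes in all exceeded 0.95. For Ace they were Mybl2, Lhfpl2 and Colgalt1 (each 0.992), among 97 genes above 0.95. For Agt they were Tmeff2, Ddx49 and Atg4b (0.996 to 1.000), among 64 above 0.95, all with RAP 3 as the high array. For Edn1 they were Zc2hc1a (0.991), Bmp4 (0.987) and Dapk2 (0.982), among 20, and for Ece1 Smim1 (0.992), Hpgds (0.986) and Rnd3 (0.983), among 10. Of these 15 genes, 0 passed the thresholds, beside 6.39% of all genes tested.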

How the data were processed

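Left atrial RNA of 6 rats was hybridized to Affymetrix Rat Gene 1.0 ST arrays. The deposited log2 values are the output of RMA (robust multiarray averaging: background correction, quantile normalization, median polish), which the authors ran at default settings in Partek Genomics Suite. The software version is not given in the sources used here. The values were used as deposited. Of 29214 probe sets, 15310 carry 1 symbol in the array annotation, 323 several and 13581 none. The annotation gives no genome build, so no coordinates of probe sets are given, and promoter sequences are RefSeq's (GRCr8), matched by symbol.

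The 19907 probe sets that exceeded a log2 signal of 5 on any array were kept, and the brightest one on average stood for each gene. The comparison used limma 3.58.1 (R 4.3.3), with the pair as a block, after the study's paired design (2 residual and 2.76 prior degrees of freedom), and the fit was tested on simulated data. P-values were adjusted over all probe sets kept. The pairs were matched by the replicate numbers in the labels, after the study's paired design. Neither the labels nor the study's methods say that equal numbers mark rats paced together. The study reported likeness within pairs in its principal component analysis. Deviations from the group means of paired arrays were correlated across probe sets at 0.22, -0.24 and -0.32 in pairs 1, 2 and 3. Likeness within a pair would tend to give a positive value, which only pair 1 has. The matching was not tested further, and the pair differences and the blocked fit rest on it. The number of arrays limits the precision.

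Named are the members, list genes past the thresholds (up to 4 a list, otherwise up to 3 by size of change), direct neighbours in the pathways and the 3 genes most like each member. Further list genes were named after their values were seen. The members and lists, the latter written from textbook knowledge, were chosen with earlier results of these data known. Alternatives tried were no pair, the methods' paired t-test, moderation with a trend, array weights, other filters, 3 scalings, the mean over probe sets, and each pair or array left out.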

Additional observations from a re-analysis of the deposited data

How the results depend on the processing

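Agtr1a kept its direction under all 19 alternatives and its side of the threshold under 18. All RAP arrays of Agtr1a lay below all its Con arrays, so leaving out pairs or arrays could not reverse its direction. Several other settings leave its change of -1.10 as it is. By the methods' paired t-test its log2 change of -1.10 had an unadjusted p of 0.0604 and did not pass, and its adjusted p by all alternatives ranged from 0.0488 (array weights) to 1.00. Without the pair as a replicate block, Agtr1a passed (-1.10, unadjusted p = 0.00912 by limma), with 1 member, 4 list genes and 870 genes in all past the thresholds, and no member changed its call. By the methods' paired t-test 0 members, 0 list genes and 234 of all genes passed, beside 1, 3 and 718 in the reported fit. Array weights, which gave the arrays of pair 1 a weight of 4.91, those of pair 2 one of 0.62 and those of pair 3 one of 0.33, passed 3 members, 23 list genes and 2650 genes, with Ace at -0.83, Agtr1a at -0.68 and Edn1 at 1.15 (adjusted p = 0.0414 by limma). Of the list genes, 6 passed with no filter, 1 with a log2 signal above 6 required, and 5 after median centring. Of all genes, 845, 627 and 711 passed in these 3 settings, and a change of filter also changes how many genes are tested. Leaving out 1 pair or 1 array gave 1 to 3 members, 0 to 23 list genes and 164 (without pair 1) to 2488 (without pair 3) of all genes, with 378 without pair 2 and, unpaired, 1144 without RAP 3, 408 without Con 1 and 1731 without Con 3. Ace passed without pair 3 (-1.48) and, unpaired, without RAP 1 (-1.35) or Con 3 (-1.55), and Edn1 passed without pair 3 (0.97). Over the same 9 fits the log2 change ran from -0.01 to 0.60 for Agt, -1.55 to -0.41 for Ace, -1.38 to -0.80 for Agtr1a, -0.18 (without Con 2) to 1.33 (without Con 3) for Edn1 and -0.18 to 0.00 for Ece1. Agtr2 was under 5 on all arrays, so its difference was not detectable.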
